A study of Rattus norvegicus with 47 samples.

Results

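In prefrontal cortex RNA from newborn rats, 112 genes stood at least 8-fold high in the same 2 libraries, OPFR females 4 and 5. The 112 were chosen from 32883 Ensembl gene IDs, of which 27198 had at least 1 read, by the counts of those libraries themselves. A gene was taken when it reached 1 CPM in both libraries, where CPM is the gene's read count scaled to the library's total, and exceeded 8 times the sum of 0.05 CPM and its median over the other 45 libraries. Of 6 IDs left out of the set in advance, 1 passed this threshold, ENSRNOG00000016275, at 36.5 and 19.1 CPM in OPFR females 4 and 5. That ID reached 67.8 CPM in Control female 6, above both. The level of a member in OPFR females 4 and 5 is therefore a description of the choice and carries no test. From the other 45 libraries the choice used only each gene's median. It did not use which of those libraries were high, in which combinations of members, or how the levels in OPFR females 4 and 5 compare with each other.

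The study measured prefrontal cortex on postnatal day 1, in both sexes, after exposure once daily during gestation to 1 of 3 flame-retardant preparations. The BFR groups received 1000 µg of a brominated preparation (EH-TBB with BEH-TEBP), the OPFR groups 1000 µg of an organophosphate preparation (triphenyl phosphate with isopropylated triphenyl phosphate), and the FM550 groups 2000 µg of FireMaster 550. Control animals are labelled as controls with no agent named. Each combination of treatment and sex held 6 libraries except OPFR females, with 5, which gives 47 libraries. The labels name no strain, litter, animal or batch, and p-values below refer to variation among these libraries, which may be technical in part. Replicate numbers are names given in record order and pair no libraries.

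FireMaster 550 is a commercial flame retardant sold as a mixture, and its brominated and organophosphate ingredients were given here also as separate preparations. On the first postnatal day the rat cortex is still maturing, with new glia forming and neurons still growing their processes. RNA from a piece of tissue sums over all its cells, so a higher level of a gene can come from more cells that carry it or from more RNA in each of them, and these cannot be told apart here.

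The count table gives genes by Ensembl ID alone. None of the IDs matched the gene table used here (0 of 32883), so no symbol, function or sequence is given for a member, and lists of cell type markers were not tested on these libraries. The tissue label was likewise not checked against marker genes. Depth was high and did not set the 2 libraries apart: totals ran from 41.1 to 73.4 M reads per library, with 59.7 M in OPFR female 4 and 65.7 M in OPFR female 5. The scarcest member had 62 reads in the former and 66 in the latter. Counting error in these 2 libraries is thus small beside an 8-fold difference. Elsewhere the scarcest members rest on few reads or none: ENSRNOG00000011423 had no reads in 25 of the other 45 libraries.

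The set was dominated by a few abundant genes. All members together took 0.828% of the reads of OPFR female 4 and 1.69% of those of OPFR female 5. In the other 45 libraries the same genes took between 0.00409% (OPFR male 3) and 0.272% (Control female 4). The 8 most abundant members accounted for 72.6% and 79.9% of the members' reads in OPFR females 4 and 5. By the lower of its values in the 2 libraries, 11 members exceeded 100 CPM, 30 lay between 10 and 100 CPM and 71 lay at or below 10 CPM. Most were near the floor elsewhere: the median over the other 45 libraries was below 1 CPM for 100 members, and below 0.1 CPM for 35 of those. Shifts the other way were counted only among genes with a median of at least 1 CPM, which 12 of the members had. Of such genes, 6 fell below an eighth of their median in both libraries.

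The set shades off gradually at the threshold. Just inside it were ENSRNOG00000006330, whose lower value was 8.55 times its median plus 0.05, and ENSRNOG00000004635, at 8.57 times. Just outside were ENSRNOG00000009797 and ENSRNOG00000016606, both at 7.65 times. ENSRNOG00000009797 stood at 11.7 and 14.3 CPM in OPFR females 4 and 5, well above many genes that were taken.

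The members differed in which of the other 45 libraries were high. They were grouped by the similarity of their levels over the other 45 libraries, as Spearman correlation of log2(CPM + 0.1) with average linkage, and divided into 5 blocks of 42, 32, 18, 17 and 3 members. The number of blocks was chosen after the values were seen, so the blocks describe the data and are not tested. Within the 4 larger blocks the median correlation between members was 0.51 in the block of 32, 0.51 in that of 42, 0.45 in that of 17 and 0.40 in that of 18, each over 45 libraries that share tissue and sex structure. Correlation with members of other blocks had medians from 0.13 to 0.18 for these 4 blocks.

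**Figure D1:**
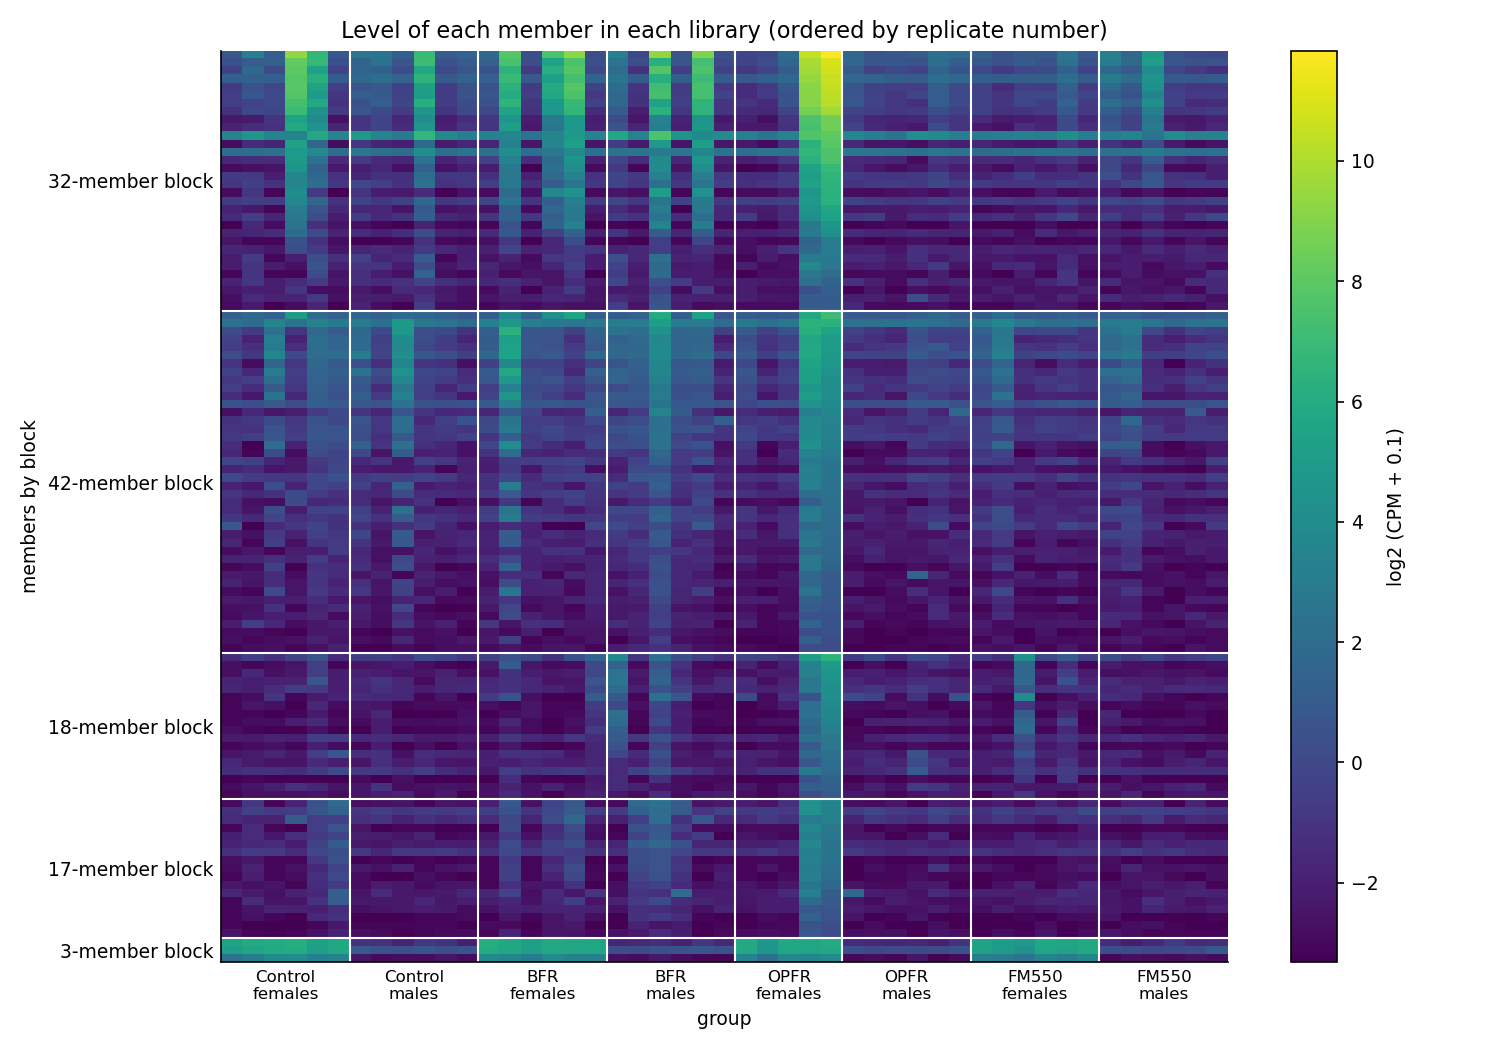
Level of each of the 112 members, as log2(CPM + 0.1), in the 47 libraries, with members sorted by block and libraries by group and replicate number. OPFR females 4 and 5 are bright throughout, whereas most other libraries that brighten do so in 1 or 2 blocks, with BFR male 3 and BFR female 2 raised in more of them, and the block of 3 is bright in all females and dark in all males.

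The blocks also separated the 2 outlying libraries from each other, although neither library entered the grouping. Over all members the higher value was in OPFR female 4 for 58 and in OPFR female 5 for 54, an even division. Within these blocks it was lopsided. Grouping by Pearson correlation or by complete linkage instead joined most of the 32 with all of the 17, which lean opposite ways. In the block of 32, 27 members were higher in OPFR female 5, with a median ratio of 2.11 to OPFR female 4. In the block of 18, 17 members were higher in OPFR female 5, with a median ratio of 2.67. The other 2 large blocks leaned to OPFR female 4: 36 of the 42 and 16 of the 17 were higher there, with median ratios of OPFR female 5 to OPFR female 4 of 0.611 and 0.552.

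**Figure D2:**
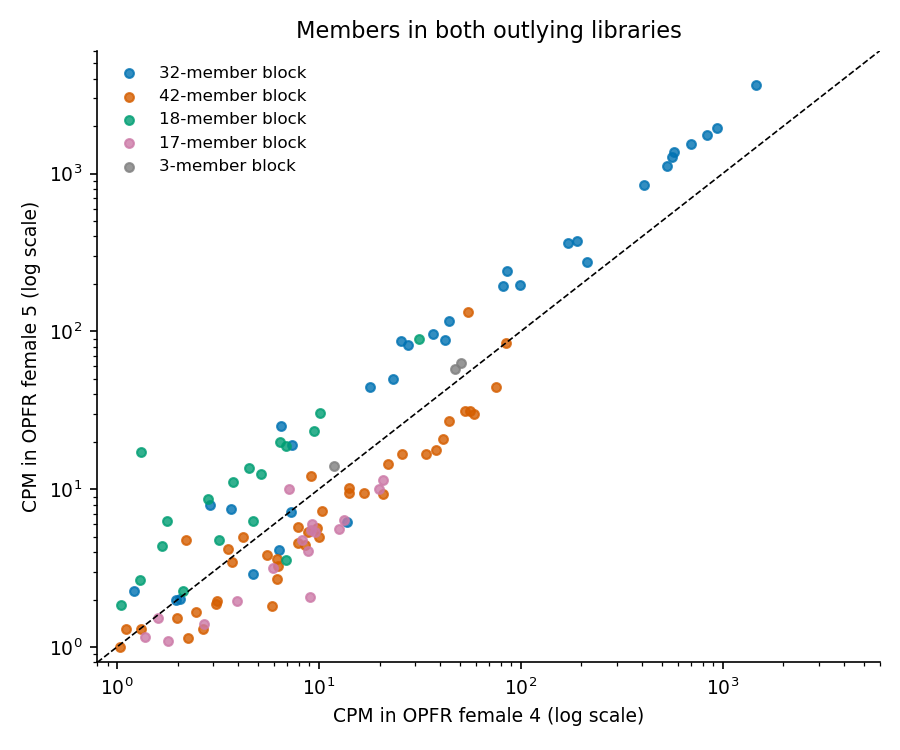
CPM of each member in OPFR female 4 (horizontal) and OPFR female 5 (vertical), both on log scales, coloured by block, with the dashed line marking equal values. Points of the 32- and 18-member blocks lie mostly above the line (27 of 32 and 17 of 18) and those of the 42- and 17-member blocks mostly below it (36 of 42 and 16 of 17).

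The block of 32 held the most abundant genes, including all 8 of the top members. Its summed level was 7131 CPM in OPFR female 4 and 15766 CPM in OPFR female 5, while OPFR females 1, 2 and 3 were at 22.5, 20.3 and 39.0 CPM. The leading member was ENSRNOG00000047175, at 0.793, 0.956, 4.06, 1469 and 3645 CPM in OPFR females 1 to 5. The second, ENSRNOG00000032219, stood at 0.776, 1.12, 3.12, 941 and 1939 CPM in the same libraries. Neither gene had an intermediate value within the group: 3 libraries were near the median of the other 45 and the 2 outlying ones were far above it. Relative to that median the farthest members were ENSRNOG00000047673 and ENSRNOG00000008700, whose lower values were 748 and 655 times the median plus 0.05.

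Members of this block were also high in 9 other libraries, spread over controls and treated groups. The number over the 8-fold threshold, of 32, was 25 in BFR male 3, 22 in Control female 4 and BFR female 5, 21 in BFR male 5, 19 in Control male 4 and BFR female 2, 16 in BFR female 4, 15 in Control female 5 and 10 in FM550 male 3. No other library had any. Summed over the block, which a few abundant genes dominate, Control female 4 had the highest sum outside the 2 libraries, at 2522 CPM. BFR female 5 followed at 2074 CPM, then BFR male 3 at 1849, BFR male 5 at 1702 and BFR female 2 at 1068 CPM. Control male 4 (770 CPM), Control female 5 (637 CPM), BFR female 4 (611 CPM) and FM550 male 3 (200.4 CPM) stood lower, and the remaining 36 libraries lay between 18.8 and 107 CPM. ENSRNOG00000047175 shows the pattern in 1 gene. It had a lowest, median and highest value of 1.63, 5.98 and 668 CPM in control females, and of 2.07, 4.30 and 124 CPM in control males. In BFR females these values were 1.12, 101 and 612 CPM, and in BFR males 0.868, 5.48 and 672 CPM. It stayed at or below 4.63 CPM in all 6 OPFR males and at or below 5.99 CPM in all 6 FM550 females, and reached 29.6 CPM in 1 FM550 male. Within each of the control and BFR groups, then, some libraries were far above others of the same treatment and sex, and the groups overlapped.

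The proportions among the 32 genes were close to those of OPFR female 5 in some of these libraries and less so in others. Across the 32 genes, Pearson's r of log2 CPM with OPFR female 5 was 0.979 in OPFR female 4, 0.985 in BFR female 5, 0.985 in BFR female 2, 0.977 in BFR male 5, 0.973 in Control female 4 and 0.973 in BFR female 4. It was 0.940 in FM550 male 3, 0.919 in Control female 5, 0.895 in BFR male 3 and 0.879 in Control male 4. These are correlations across genes within pairs of libraries, genes are not independent replicates, and part of each comes from baseline differences between genes. In the 36 libraries with no member of the block over the threshold, r ranged from 0.454 in OPFR male 4 to 0.889 in FM550 male 1. The latter is above the value of Control male 4 and just below that of BFR male 3. In BFR male 3 the balance of genes was different, and ENSRNOG00000050023 stood at 35.4 CPM there, above its 25.6 CPM in OPFR female 4 and below its 86.6 CPM in OPFR female 5.

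The block of 42 was less abundant and was high in other libraries. Its summed level was 790 CPM in OPFR female 4 and 602 CPM in OPFR female 5, against 28.2, 14.2 and 21.7 CPM in OPFR females 1 to 3. Outside the 2 libraries BFR female 2 was highest at 477 CPM, then BFR male 3 at 279 CPM and Control male 3 at 212 CPM. Control female 3 reached 90.1 CPM, FM550 female 2 86.5 CPM and BFR male 5 83.5 CPM, and in the other 39 libraries the sum stayed between 12.0 and 71.6 CPM. ENSRNOG00000050042 was as high in BFR female 2 as in the libraries that defined the set: it stood at 84.3 CPM there, against 75.4 and 44.8 CPM in OPFR females 4 and 5. Its next highest values were 25.6 CPM in Control male 3 and 20.6 CPM in BFR male 3, and its group medians ran from 0.690 CPM in OPFR males to 3.76 CPM in BFR males. ENSRNOG00000046276 had the highest baseline of the examples, with a median of 6.35 CPM over the other 45 libraries. It stood at 85.0 and 84.1 CPM in OPFR females 4 and 5, and elsewhere reached at most 35.8 CPM, in BFR male 3.

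The blocks of 18 and 17 were scarce genes, each with its own companions. The sum of the 18 was 105 CPM in OPFR female 4 and 277 CPM in OPFR female 5, 59.3 CPM in FM550 female 3, 49.4 CPM in BFR male 1, 25.8 CPM in BFR male 3 and 12.5 CPM in BFR female 6. All other libraries lay between 1.67 and 8.48 CPM. Its leading member ENSRNOG00000020817 was at 31.5 and 89.0 CPM in OPFR females 4 and 5, 18.5 CPM in FM550 female 3 and 12.6 CPM in BFR male 1, with group medians between 0.456 and 1.04 CPM in the 7 other groups. ENSRNOG00000032805 stood at 10.1 and 30.2 CPM in the first pair and 3.23 CPM in FM550 female 3. The sum of the 17 was 145 CPM in OPFR female 4 and 81.8 CPM in OPFR female 5. It came to 28.2 CPM in BFR male 3, 20.9 CPM in Control female 6, 17.0 CPM in BFR male 2, 14.5 CPM in BFR female 5 and 13.5 CPM in BFR male 4. Control males had a narrow range in these genes, from 1.99 to 2.28 CPM summed, and FM550 males ranged from 1.69 to 3.10 CPM. ENSRNOG00000051911, its most abundant member, stood at 20.8 and 11.5 CPM in OPFR females 4 and 5, and at 4.98, 3.55 and 3.57 CPM in BFR male 3, BFR male 2 and Control female 6.

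**Figure D3:**
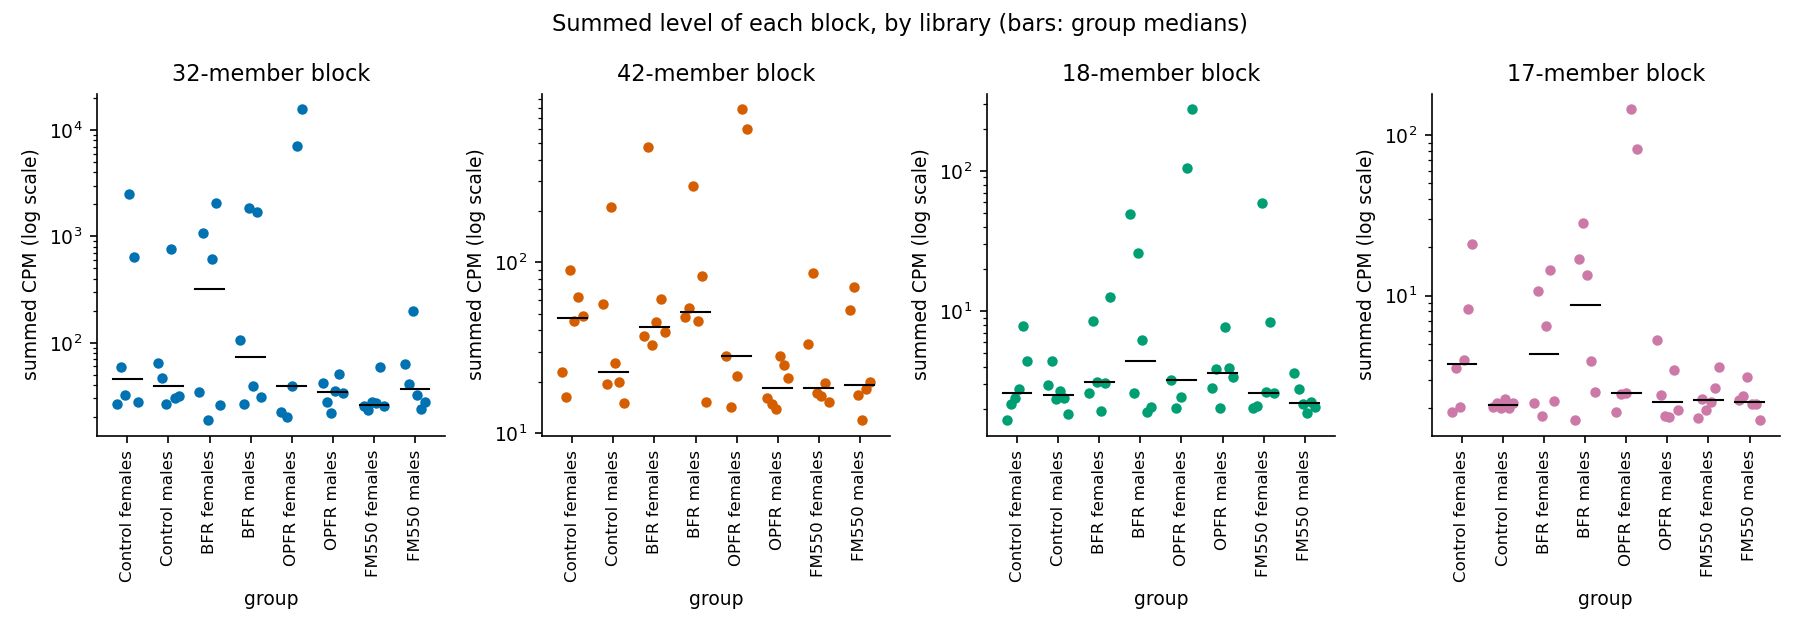
Summed CPM of the members of each large block in every library, on log scales that differ between panels; points are libraries and short bars are group medians. In each block OPFR females 4 and 5 are the 2 highest points, and the next highest libraries differ between blocks: Control female 4 (2522 CPM) for the 32, BFR female 2 (477 CPM) for the 42, FM550 female 3 (59.3 CPM) for the 18 and BFR male 3 (28.2 CPM) for the 17.

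The block of 3 held genes that differ by sex. The rule takes a median over the other 45 libraries, and since 21 were female and 24 male, that median fell at the male level. ENSRNOG00000051257 stood at 56.0, 24.0, 52.5, 50.4 and 63.0 CPM in OPFR females 1 to 5. Its highest value elsewhere was 69.9 CPM, in BFR female 1. The 2 libraries thus lay within the range of the other females, with OPFR female 5 the highest of its group. The medians of this gene were 57.4, 51.0 and 45.8 CPM in control, BFR and FM550 females. In the 4 male groups they lay between 0.232 and 0.330 CPM. ENSRNOG00000055225 had female group medians from 8.39 to 11.9 CPM and male ones from 0.0303 to 0.0397 CPM. All 3 members were higher in each of the 21 other females than in each of the 24 males. They were the only 3 of the 26875 genes with a read in these 45 libraries for which every female exceeded every male (0.0112%). The remaining 109 members are the ones for which the next counts are given.

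Sharing with other libraries was counted gene by gene. A member was counted in a library when it reached 1 CPM there and met the same 8-fold threshold. How many of all genes passed it in each library was not counted. The counts by library, here and above for the block of 32, therefore describe the members and do not set them apart from other genes. Of the 109, 71 were over the threshold in at least 1 of the other 45 libraries and 24 in 5 or more, with a maximum of 9 libraries. The remaining 38 passed in none. By level the first of these were ENSRNOG00000005707, of the block of 32, at 99.2 and 197 CPM in OPFR females 4 and 5, and ENSRNOG00000046276. The former still followed its block below the threshold: against group medians of 4.57 to 5.60 CPM in the other 7 groups, it stood at 28.6 CPM in Control female 4, 18.7 CPM in BFR female 2 and 17.3 CPM in Control male 4. Of all 112 members, 88 had higher values in both libraries than in any other, and 24 did not, among them the 3 that differ by sex.

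Among libraries, BFR male 3 had 54 of the 109 over the threshold and BFR female 2 had 42. BFR female 5 had 27, Control female 4 23, BFR male 5 22, Control male 4 19, Control female 5 and BFR female 4 16 each, Control male 3 15, and BFR male 1 and FM550 male 3 10 each. These 11 libraries were 4 controls, 6 BFR and 1 FM550. In 10 further libraries between 1 and 8 members passed, and in 24 libraries none did. The other 9 OPFR libraries were among the lowest: none had more than 2 members over the threshold.

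**Figure D4:**
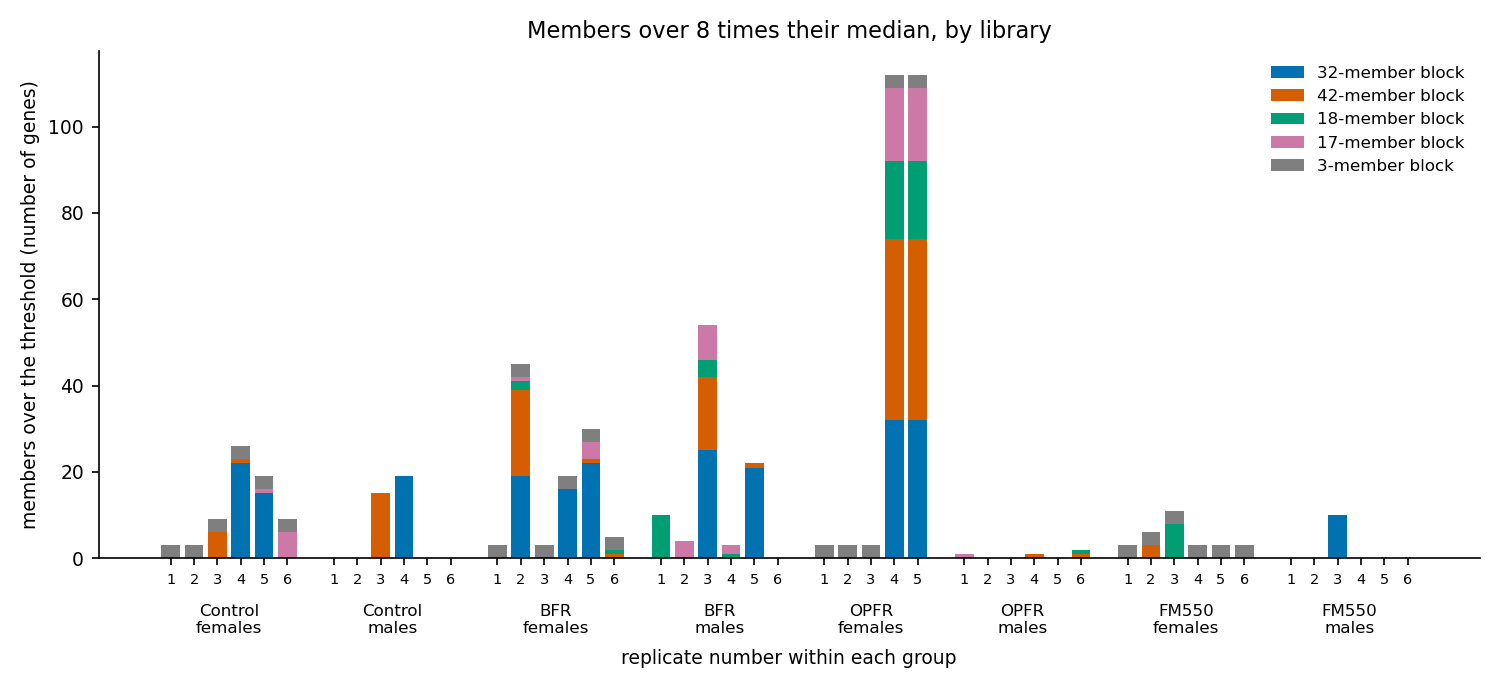
Number of members at or above 1 CPM and over 8 times the sum of 0.05 CPM and their median, in each of the 47 libraries, with bars divided by block; the 3-member block counts in every female. BFR male 3 (54) and BFR female 2 (42 besides the block of 3) come nearest to OPFR females 4 and 5, and the other OPFR libraries have at most 2 besides the block of 3.

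The libraries shared members along the lines of the blocks, in part as nested sets. All 22 members over the threshold in BFR male 5 were also over it in Control female 4 (95.7% of its 23), and all 23 of Control female 4 were also over it in BFR female 5 (85.2% of its 27). The 10 members of FM550 male 3 were all among those of Control female 4, Control female 5, Control male 4 and BFR male 3. Other sets overlapped without being nested: Control female 4 shared 16 of the 19 of Control male 4 and 14 of the 16 of Control female 5. A second family of libraries was apart from these. All 15 members over the threshold in Control male 3 were among the 42 of BFR female 2 (35.7%), yet none was among the 23 of Control female 4. The third was FM550 female 3, whose 8 members were all among the 10 of BFR male 1 and none among those of Control female 4 or BFR female 5. BFR male 3 and BFR female 2 had members of all 3 families, including 4 and 2 of the 8 of FM550 female 3. They shared 36 members with each other, 66.7% of the former's and 85.7% of the latter's. In none of the other 45 libraries were all 4 large blocks as high as in OPFR females 4 and 5.

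Genes outside the set with the most similar profile over the other 45 libraries were ENSRNOG00000017786 and ENSRNOG00000019810. Their Spearman correlations with the members' mean log2 CPM were 0.67 and 0.66 over 45 libraries. They were also raised in the 2 libraries but did not reach the threshold in both: ENSRNOG00000017786 stood at 249 and 133 CPM in OPFR females 4 and 5 against a median of 22.8 CPM, and ENSRNOG00000019810 at 57.2 and 24.6 CPM against 4.64 CPM.

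Group comparisons were made with OPFR females 4 and 5 left out, since those values chose the members. The remaining 45 libraries were fitted together with edgeR's quasi-likelihood test over 17328 genes, with Benjamini-Hochberg adjustment over all of them. Of the 112 members, 109 passed the filter on low counts (a different 109 from those above, lacking 2 of the block of 42 and 1 of the block of 17). A member that passed through the libraries where it is high was bound to vary, so counts over the tested members describe them and support nothing further. Comparisons of the same sex share their control libraries. Alternative fits handled apart the 7 libraries numbered 1 to 7 in the sample titles. These are Control males 1 to 5 and Control females 1 and 2. Among males, any difference of these libraries from the rest can scarcely be told apart from one between control and treated groups. When they are left out, only 1 control male is left to compare with. A loss of calls there cannot show that these libraries differ.

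In the other OPFR females, 3 libraries against 6 controls, no member was called (0 of 109), where 0.439% of all genes were (76 of 17328). The members' values were nevertheless almost all on the low side. A total of 108 of 109 had a log2 fold change below 0, against 9150 of 17328 genes, with a median of -1.44 against -0.0083 over all genes. At an unadjusted p below 0.05 there were 32 members, all lower, where 2.43% of all genes were lower at that level. Without Control female 4, the control with the highest members, 17 were. The control females themselves varied widely in the block of 32. Its sum was 22.5, 20.3 and 39.0 CPM in OPFR females 1 to 3, and ranged from 26.7 to 2522 CPM with a median of 45.6 CPM in the 6 control females, so the groups overlapped. ENSRNOG00000047175 stood at -5.99 ± 2.34 (SE, log2), and its adjusted p was 0.447 by edgeR's quasi-likelihood test. DESeq2, run as an alternative, called 11 of 112 members, all lower, where it called 0.138% of 26875 genes lower.

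FM550 females gave a similar picture against the same controls. No member was called (0 of 109) and no gene was (0.0%), 92 members were below 0, and the median log2 fold change was -0.83. At an unadjusted p below 0.05, 38 of the 46 members at that level were lower, against 1.99% of all genes. Without Control female 4, 22 of 28 were lower, where 335 of 17311 genes were lower at that level. ENSRNOG00000047175 stood at -5.69 ± 1.68 (SE, log2), with an adjusted p of 0.317 by edgeR's quasi-likelihood test. The block of 18 ran the other way, with values from -0.30 to 4.86 and 3 of 18 members below 0, and FM550 female 3 was the library that was high in it. DESeq2 called 16 members, all lower, where it called 0.0744% of 26875 genes lower. In BFR females no member (0 of 109) and no gene (0.0%) was called, with 5 members at an unadjusted p below 0.05, where 9.41% of all genes were. The median log2 fold change of 0.25 turned to -0.29 without BFR female 2 and to -0.08 without BFR female 5.

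In edgeR's fit, BFR males had the most members called. Of 109 members, 22 were called and all 22 were higher than in control males, where 4.95% of all genes were called higher and 11.8% in either direction. The median log2 fold change of the members was 1.08, against 0.0017 for all genes, and 100 of 109 were above 0. Without BFR male 3 the median was 0.52 and 39 of 107 were below 0. With a term for the libraries numbered 1 to 7 it was 0.50 with 41 of 109 below 0. With those libraries left out, which leaves 1 control male, the median was instead 2.90. DESeq2 called 16 members, all higher, 13 of them among the 22, where it called 4.28% of 26875 genes higher. The calls came from the scarce blocks: 9 of 16 tested in the block of 17, 9 of 18 in the block of 18, 2 of 40 in the block of 42 and 2 of 32 in the block of 32. None of the 3 genes that differ by sex was called.

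The lowest adjusted p was that of ENSRNOG00000019296, of the block of 17. It ranged from 0.193 to 3.08 CPM in BFR males, with a median of 0.769, and from 0.0903 to 0.145 CPM in control males, with a median of 0.117. The log2 fold change was 3.22 ± 0.62 (SE), with an adjusted p of 0.00159 by edgeR's quasi-likelihood test. This was the only called member for which all 6 BFR males lay above all 6 control males, though 3 of the 6 lay just above, at 0.193 to 0.210 CPM. How many of all genes have no such overlap was not counted. ENSRNOG00000051911 had a log2 fold change of 4.78 ± 1.05 (SE) and an adjusted p of 0.00378 by the same test. Its values in BFR males 1 to 6 were 0.0350, 3.55, 4.98, 1.98, 0.0765 and 0.113 CPM, against 0.0188 to 0.0829 CPM in control males, so the groups overlapped and BFR males 2, 3 and 4 were far above the rest.

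Most calls in BFR males rested on a few of the 6 libraries. Of the 22 called members, 7 were above every control male in 2 BFR males, 9 in 3, 5 in 4 and 1 in all 6. The same was not counted over all genes, so these numbers only describe the called members. BFR male 3 was above every control male in all 22 and was the highest library in 13, and BFR male 1 was the highest in the other 9. Without BFR male 3 the number called fell to 13 of 107, all higher, where 712 of 17310 genes were called higher. Without Control male 5 it was 14 of 109, all higher, where 562 of 17321 genes were called higher. With a term for the libraries numbered 1 to 7, no member was called by edgeR, and no gene was (0 of 17328). The next counts are for that fit and for the fit without those libraries, which leaves 1 control male. In each of these fits 10 members had an unadjusted p below 0.05, none of them lower, where 1.54% and 1.61% of all genes did. With only the BFR and control males in the fit, 70 members were tested and 3 were called, all higher. In that fit 506 of 16181 genes were called higher.

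In OPFR males 2 members were called (of 109, 14.9% of all genes), 1 in each direction, and each depended on 1 library. ENSRNOG00000027595 was higher (log2 fold change 2.40 ± 0.83, SE), with an adjusted p of 0.0444 by edgeR's quasi-likelihood test. OPFR male 4 stood at 2.86 CPM, while the other 5 OPFR males ranged from 0.0295 to 0.197 CPM and the control males from 0.0207 to 0.181 CPM. ENSRNOG00000012821 was lower, with a log2 fold change of -3.37 ± 1.18 (SE) and an adjusted p of 0.0468 by the same test. Here Control male 4 stood at 2.67 CPM, the other control males between 0.0174 and 0.308 CPM, and the OPFR males between 0.0174 and 0.148 CPM. Without OPFR male 4, or without Control male 4, no member was called, and the same held without Control male 1. The median log2 fold change of the members, -0.88, moved to -0.57 without Control male 3 and to -0.28 without Control male 4. DESeq2 called 11 members, where it called 10.9% of 26875 genes. In FM550 males no member was called (0 of 109, 13.1% of all genes), with 6 at an unadjusted p below 0.05, all lower, where 13.6% of all genes were lower at that level. The median log2 fold change of -0.63 moved to -0.15 without Control male 3 and to -0.27 without Control male 4. DESeq2 called 1 member, where it called 9.86% of 26875 genes. Without the libraries numbered 1 to 7, which leaves 1 control male, the medians were 0.33 in OPFR males and 0.72 in FM550 males, above 0.

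**Figure D5:**
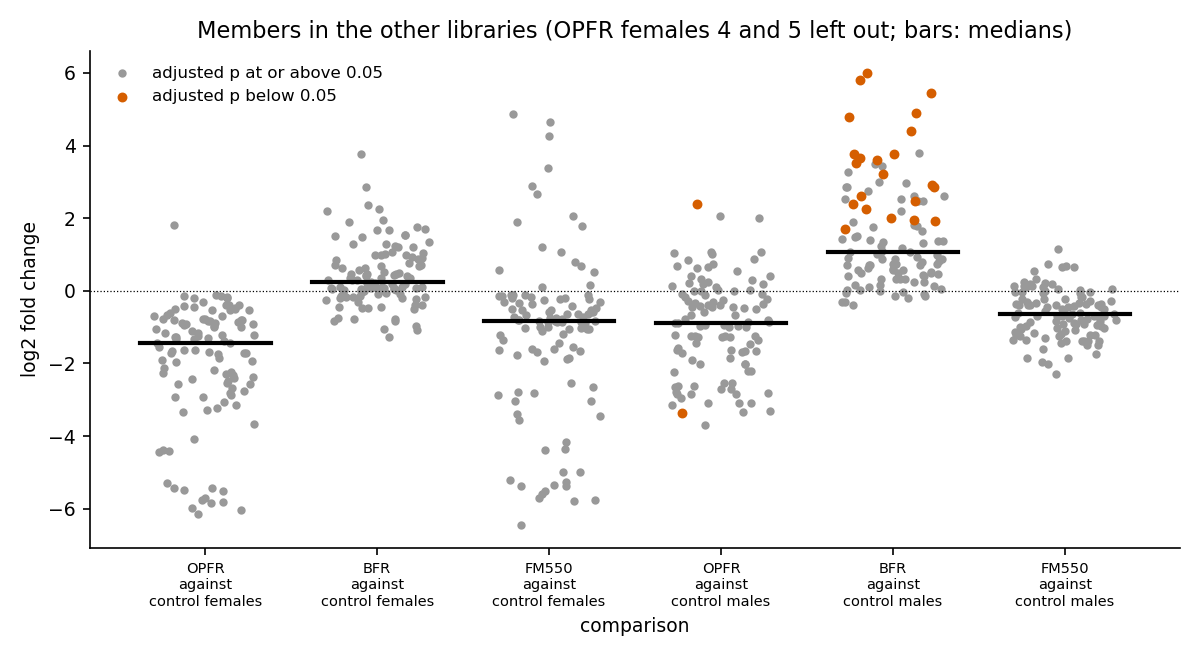
Log2 fold change of each tested member in the 6 comparisons with controls of the same sex, with OPFR females 4 and 5 left out; orange points have an adjusted p below 0.05 by edgeR's quasi-likelihood test, grey points do not, and bars are medians. The medians are -1.44, 0.25 and -0.83 in OPFR, BFR and FM550 females and -0.88, 1.08 and -0.63 in the males, and 22 of the 24 orange points are in BFR males.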

How the data were processed

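RNA-seq libraries of postnatal day 1 rat prefrontal cortex were analysed from the whole-number count table the authors deposited, which lists reads by Ensembl ID and is not normalized. Libraries were poly(A)-selected and strand-specific, per the labels' protocols. FastQC, featureCounts and DESeq2 were used, per the submitters' processing notes, with no versions. Not given in the sources used here are the aligner, genome build and strand setting, and overlapping and near-identical genes were taken as counted. Another 15 lines without a gene ID were empty. Columns were matched to samples by the number in the title, and groups come from the labelled treatment and sex.

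CPM is the count over the column total. The members and tests, and marker lists by symbol that no ID could be matched to, were chosen with earlier results of these data known. Group comparisons used edgeR 4.0.16 in R 4.3.3 on 45 libraries, without OPFR females 4 and 5: TMM scaling (factors 0.957 to 1.03), filterByExpr over the 8 groups (minimum count 10, minimum total 15), a group-means quasi-likelihood model, Benjamini-Hochberg adjustment over 17328 genes, two-sided, called below 0.05. DESeq2 1.42.0 was an alternative. Other alternatives were size factors, the filter, the groups fitted, a term for libraries 1 to 7, leaving out those libraries or single replicates, and other thresholds for membership. Blocks, medians and correlations were computed with Python 3.11.15, pandas 2.3.3 and SciPy 1.17.1. The model was tested on simulated counts. IDs named are the highest by level or ratio, those nearest the threshold, those highest in the libraries with most members over it, and those with the lowest adjusted p, limited to a few in each pattern because no symbols were at hand. ENSRNOG00000050042 was chosen after its values were seen.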

Additional observations from a re-analysis of the deposited data

Results flagged for a closer look

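The summed level of each of the 4 large blocks and of all members was checked in each of the 8 groups for a single library far from the others by Dixon's test. For normally distributed values, chance gives about 1 in 20 such groups. These sums were not normally distributed, with 26.7 to 2522 CPM in control females for the block of 32. The number found, 13 of 40, is therefore a description and is not compared with that rate. None was in OPFR females, whose values chose the members and where 2 libraries high together can hide a single one. The sums of all members and of the block of 32 largely repeat each other.

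In the block of 32 members, Control female 4 stood at 2522 CPM with the next control female at 637 CPM. Control male 4 stood at 770 CPM with the next at 65.0 CPM, and FM550 male 3 at 200.4 CPM with the next at 63.8 CPM. FM550 female 5 stood apart at a low level, 58.7 CPM against 28.1 CPM. For all members together, Control female 4 reached 2724 CPM (next 803 CPM) and Control male 4 reached 803 CPM (next 244 CPM).

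In the block of 42, BFR female 2 stood at 477 CPM (next 60.8 CPM), BFR male 3 at 279 CPM (next 83.5 CPM), Control male 3 at 212 CPM (next 56.9 CPM) and FM550 female 2 at 86.5 CPM (next 33.5 CPM). In the block of 18, FM550 female 3 stood at 59.3 CPM (next 8.34 CPM) and OPFR male 4 at 7.72 CPM (next 3.90 CPM). In the block of 17, Control female 6 stood at 20.9 CPM (next 8.32 CPM).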

How the results depend on the processing

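The number of members followed the threshold: 206 at a factor of 4, 74 at a factor of 16, 60 with an offset of 0.5 CPM and 64 with a minimum of 5 CPM. It was 108 on TMM-scaled CPM and 111 with the median of the other 21 females, an alternative chosen after seeing the data. Members over the threshold in another library numbered 74 with the block of 3 included, 91 at a factor of 4 and 58 at a factor of 16. Members called in OPFR males were 2 at first and 11 with DESeq2. With no filter on low counts they were 0 of 112, where 1961 of 26875 genes were called. With only the 2 groups they were 0 of 57 tested, where 1015 of 16090 genes were called. With a term for libraries 1 to 7 no member was called, and no gene was (0 of 17328). That term leaves only Control male 6 outside it among the control males, here and for BFR males below. Leaving out 1 library at a time gave 0 to 6 members called, where 1771 to 3446 of all genes were called. In BFR males the 22 became 3 of 70 tested with only the 2 groups. With the term they became 0, and again no gene was called (0 of 17328). Leaving out 1 library at a time gave 13 to 29, of which 13 to 22 were among the original 22. In those fits 465 to 1610 of all genes were called higher. DESeq2 called 11 members in OPFR females (0.138% of all genes lower) and 16 in FM550 females (0.0744%). It called 16 in BFR males (4.28% higher) and 1 in FM550 males (9.86% in either direction). In FM550 males leaving out 1 library with edgeR gave 0 to 1, where 1541 to 3470 of all genes were called. The causes were not tested. Leaving out single libraries kept the count at 0 in the 3 female comparisons. Blocks depended on the method: with Pearson correlation 25, 40 and 17 members of the blocks of 32, 42 and 17 joined in 1 block of 82. With complete linkage 24 of the 32 and all 17 of the 17 joined in 1 block of 41. With 4 blocks the 42 and 17 merged into 59. The opposite leanings of blocks between OPFR females 4 and 5 thus hold for the blocks as drawn here. No paired analysis was possible because replicate numbers follow record order. Depth did not limit the members in OPFR females 4 and 5, but in other libraries some members had few reads or none. Litter and batch are unlabelled and cannot be told apart from group.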
